A study of Rattus norvegicus with 192 samples.

Results

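The olfactory bulb of rats that had breathed phosphine (PH3) 24 h earlier was compared with that of rats that had breathed air. The members of the comparison were chosen by sample title: 4 PH3 arrays (Rat475, Rat476, Rat488 and Rat489) and 4 Air arrays (Rat478, Rat479, Rat491 and Rat502), 8 of the 192 arrays of the study, each from 1 rat. All animals were adult male Sprague-Dawley rats, and the exposure was by inhalation with the whole body in the gas. The PH3 rats breathed 660 ppm for 25 min, a product of 16500 ppm × min and 0.71 times the LCt50, the median lethal product. The Air rats are labelled as exposed to air, with no further detail in the labels. The study also took olfactory bulb at 1, 3 and 6 h (25 arrays, 12 PH3 and 13 Air), and brain stem, heart, kidney, lung and blood. Each rat was anaesthetised with ketamine and xylazine and exsanguinated before the tissue was frozen, in both exposures. The values are log2 levels from a 3′ expression array, and a positive difference means a higher level in PH3.

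Phosphine is the gas released by metal phosphide fumigants, and it is known for blocking cytochrome c oxidase, the last complex of the mitochondrial respiratory chain. The olfactory bulb is the first brain station of the sense of smell: it receives the axons of the sensory neurons of the nose, its mitral and tufted cells send the signal on, and granule and periglomerular interneurons shape it. Type I interferons are signalling proteins released by cells that sense foreign or misplaced nucleic acids; they act through cell-surface receptors and switch on a common set of antiviral genes, many of which carry a short DNA element for it. In brain, microglia, astrocytes, endothelial cells and neurons can all carry out that programme.

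The labelled tissue showed its markers. Cdhr1, a protocadherin of mitral and tufted cells, lay at 11.50 to 12.15 in the 8 bulbs and at 4.05 to 4.65 in the 8 brain stem arrays of the same time. Omp, the olfactory marker protein of sensory axons, lay at 8.56 to 9.39 against 3.27 to 3.76. Of 16 interneuron markers, 13 were higher in every bulb than in every brain stem. The 3′ index, the mean 3′ minus 5′ signal of the Gapdh and actin controls and a sign of RNA decay, was 0.389 ± 0.106 (SD, n = 4) in Air and 0.396 ± 0.0597 in PH3 (exact permutation test, two-sided, p = 0.971; the smallest p that 4 against 4 allows is 0.0286). None of the 8 arrays stood apart from the tissue's other arrays by its median correlation. 5 arrays of other times did, by more than 3 scaled median absolute deviations: PH3 1 h Rat508, PH3 3 h Rat512, PH3 6 h Rat381 and Rat391, and Air 3 h Rat400. 1 fit of all 33 olfactory bulb arrays estimated the spread of each probe set. The 5 arrays enter the PH3 minus Air difference at 24 h only through that spread, and they also enter the means in every comparison with other times. Counts of the 24 h difference and of its contrast with other times are given with and without them.

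Interferon-induced genes were the clearest difference between the exposures at 24 h. All 18 measured genes of a list of 19 interferon-induced genes had a higher mean in PH3, with a median difference of 0.86, while 6053 of all 13438 named genes had a higher mean and the median over them was -0.01. The chemokine Cxcl10, which draws T cells and natural killer cells, had the largest difference of any of the 31042 probe sets, 2.22, or 4.64-fold. No probe set passed limma's adjusted p under 0.05 in the fit of all 33 arrays (0%), and 7 did, all of them higher in PH3 (0.0226%), when the 5 arrays that stand apart were left out. Those 7 were Cxcl10, Cxcl11, Mx1, Ifit3, both probe sets of Ifit2, and Pde8b.

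**Figure D1:**
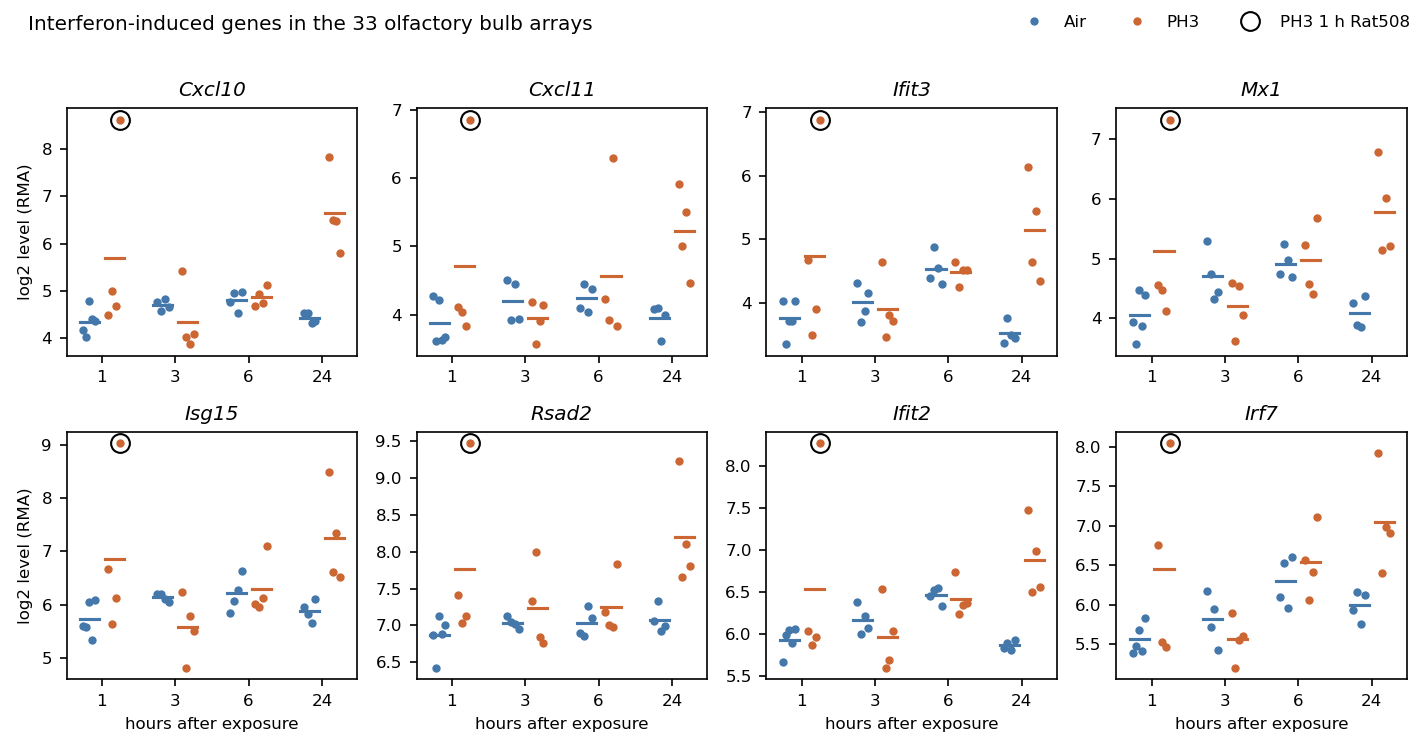
Log2 level of 8 interferon-induced genes in each of the 33 olfactory bulb arrays (y axis) by hours after exposure (x axis), Air in blue and PH3 in orange, with a bar at each group's mean. At 24 h every PH3 array lies above every Air array for each gene, and the circled array, PH3 1 h Rat508, lies highest of all arrays for each gene.

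Cxcl10 was at 4.53, 4.53, 4.32 and 4.37 in the Air rats and at 7.83, 6.50, 6.47 and 5.80 in the PH3 rats, in the order of rat numbers. The lowest PH3 rat stood well above the highest Air rat, and all 4 PH3 arrays stood above all 17 Air arrays of the tissue, which reached 4.99. The difference was 2.22 ± 0.53 (SE) in the fit of all arrays (adjusted p = 1.00, unadjusted p = 2.78e-04). It was 2.22 ± 0.30 without the arrays that stand apart, where limma called it (adjusted p = 0.00477). It was also called against the Air arrays of 1, 3 and 6 h, with all 33 arrays in the fit (2.02, adjusted p = 0.0166), a contrast in which 0.744% of all probe sets were called.

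The promoters of these genes are shown because interferon acts on them through the interferon-stimulated response element, here searched as the letters GAAA, any 2 bases and GAAA again, on both strands, in 300 bases from 250 before to 50 after the start of the RefSeq gene (build GRCr8). Of the 18 list members and the 2 chemokines, 15 had a promoter in the table, and 10 of these held the letters at least once. Over all 33469 promoters of the table the share was 3.92%. The stretches below are 60 bases each, read 5′ to 3′ on the gene's strand, with the matched letters in capitals, which start with TTTC where the match is on the other strand.
Cxcl10 (chr14:15988816-15988875, plus strand): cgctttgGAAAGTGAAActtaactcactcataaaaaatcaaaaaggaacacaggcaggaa
Ifit3 (chr1:241527257-241527316, plus strand): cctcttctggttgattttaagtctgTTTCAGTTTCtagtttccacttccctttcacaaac
Oas1a (chr12:41330400-41330459, plus strand): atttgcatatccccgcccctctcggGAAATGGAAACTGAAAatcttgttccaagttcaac
Rsad2 (chr6:48788233-48788292, minus strand): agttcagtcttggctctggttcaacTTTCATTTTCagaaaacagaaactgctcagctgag
Irf7 (chr1:205800058-205800117, minus strand): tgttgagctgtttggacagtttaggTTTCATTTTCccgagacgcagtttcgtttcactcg
Gbp2 (chr2:234005667-234005726, plus strand): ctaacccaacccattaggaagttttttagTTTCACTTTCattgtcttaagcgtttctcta
The Oas1a stretch holds 2 overlapping matches. The windows of Mx1 and Cxcl11 do not hold these letters, nor do those of Oasl, Irf1 and Psmb9. A match is a description of the letters and not evidence that a factor binds there.

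Mx1, a dynamin-like GTPase that blocks viruses inside the cell, was at 4.25, 3.88, 3.86 and 4.38 in Air and at 6.77, 5.15, 6.01 and 5.21 in PH3. Its difference of 1.69 ± 0.45 was not called in the fit of all arrays (adjusted p = 1.00) and was called without the arrays that stand apart (adjusted p = 0.0217). Rat475 was the highest PH3 rat and Rat476 the lowest, and no Air rat reached either. Ifit3, an RNA-binding protein that holds back viral translation, was at 3.38, 3.77, 3.50 and 3.45 in Air and at 6.14, 4.64, 5.45 and 4.35 in PH3. It differed by 1.62, a 3.08-fold difference of means, and was called only without the arrays that stand apart (adjusted p = 0.0438).

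Ifit2, of the same family, was at 5.83, 5.89, 5.81 and 5.93 in Air and at 7.48, 6.50, 6.99 and 6.55 in PH3. The Air rats lay close together, and the PH3 rats were spread widely above them. Its 2 probe sets gave differences of 1.02 and 1.01, with adjusted p = 0.0176 and 0.0113 without the arrays that stand apart. Cxcl11, a chemokine for the same receptor as Cxcl10, was at 4.08, 4.09, 3.61 and 3.99 in Air and at 5.91, 5.01, 5.50 and 4.47 in PH3. Its difference was 1.28, or 2.43-fold (adjusted p = 0.0217 without those arrays). Pde8b, a phosphodiesterase that breaks down cyclic AMP and a gene outside the interferon list, had a smaller and tighter difference of 0.52. It was at 3.15, 3.19, 2.87 and 3.33 in Air and at 3.79, 3.64, 3.66 and 3.52 in PH3, and its adjusted p of 0.45 was the smallest of the fit of all arrays. These levels are dim: the median over all probe sets lay from 5.32 (Air Rat478) to 5.35 (Air Rat491) in the arrays of 24 h. The Air levels of Cxcl10, Cxcl11, Mx1 and Ifit3 also lay below those medians. Against the Air arrays of 1, 3 and 6 h Pde8b was called with a difference of 0.56 (adjusted p = 1.33e-04).

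The calls against the Air rats of 24 h all depended on leaving out 1 array of another time. Those of Mx1, Cxcl11 and Pde8b needed others left out as well. PH3 1 h Rat508 had Cxcl10 at 8.61, above every other olfactory bulb array, and the SE of the Cxcl10 difference was 0.53 with it and 0.29 without it. Leaving out Rat508 alone gave 4 calls (Cxcl10, Ifit3 and both probe sets of Ifit2), and leaving out the 4 other arrays that stand apart gave 0. Rat508 still stood apart when the genes of the interferon lists were taken out of the correlation. Nearly all probe sets stayed in that correlation, other interferon-induced genes among them, so it cannot show why Rat508 stands apart. Without the 5 arrays, leaving out 1 of the 8 rats at 24 h in turn left 1 to 9 calls: Cxcl10 was called in every case, alone when Air Rat478, Rat479 or Rat491 was left out, and with 1 probe set of Ifit2 when PH3 Rat475 or Rat488 was. The fit of the 8 arrays alone called 0 (Cxcl10, adjusted p = 0.63).

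The other members of the interferon list were not called in either fit, and their values follow. Isg15, a ubiquitin-like tag put on new proteins, was at 5.96, 5.82, 5.67 and 6.12 in Air and at 8.50, 6.62, 7.35 and 6.52 in PH3, a difference of 1.35 ± 0.47. Rsad2, or viperin, which makes a nucleotide that stops viral RNA synthesis, was at 7.06, 7.33, 6.93 and 6.99 in Air and at 9.22, 7.66, 8.11 and 7.81 in PH3, a difference of 1.12 ± 0.37. It was called against the Air arrays of 1, 3 and 6 h (1.22, adjusted p = 0.043). In both genes Rat475 was far above the other PH3 rats, and the lowest PH3 rat was still above every Air rat of 24 h.

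Irf7, the factor that amplifies interferon production, differed by 1.06, Oas1a, which makes the messenger that activates RNase L, by 1.00, and Oasl by 0.88. Mx2 differed by 0.87, the guanylate-binding protein Gbp2 by 0.85, and Usp18, which removes Isg15 and damps the receptor, by 0.70. For each of these 6 genes, read by its brightest probe set, all 4 PH3 rats lay above all 4 Air rats. A second, dim probe set of Mx2 did not follow: PH3 Rat475, Rat476 and Rat488 were at 2.48 to 2.55, level with the Air rats, and Rat489 alone lay far above them (difference of means 1.04). Irf1 (0.42), Psmb8 (0.42), Ifit1 (0.39), Ifi44 (0.35), Ifi27 (0.26), Psmb9 (0.26) and Bst2 (0.16) had smaller differences, with overlapping groups. Without Air Rat502, the lowest rat for Ifi27, the Ifi27 difference was -0.0121. In all, 11 of 18 members did not overlap, where 1.73% of all probe sets did so in that direction, and 12 of 18 had an unadjusted p under 0.05, where 2.03% of all probe sets did.

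The size of the difference varied from rat to rat. The mean over the 18 members, set against the tissue's Air arrays, was 1.41 in Rat475, 0.77 in Rat488, 0.48 in Rat489 and 0.25 in Rat476. In the 4 Air rats of 24 h it lay between -0.11 and -0.01, and in all 17 Air arrays between -0.30 and 0.29. The order of the PH3 rats was much the same from gene to gene, with Rat475 first and Rat476 or Rat489 last for Mx1, Ifit3, Isg15 and Mx2. Leaving out 1 rat at a time moved the list's median difference between 0.65 (without Rat475) and 0.98 (without Rat476).

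**Figure D2:**
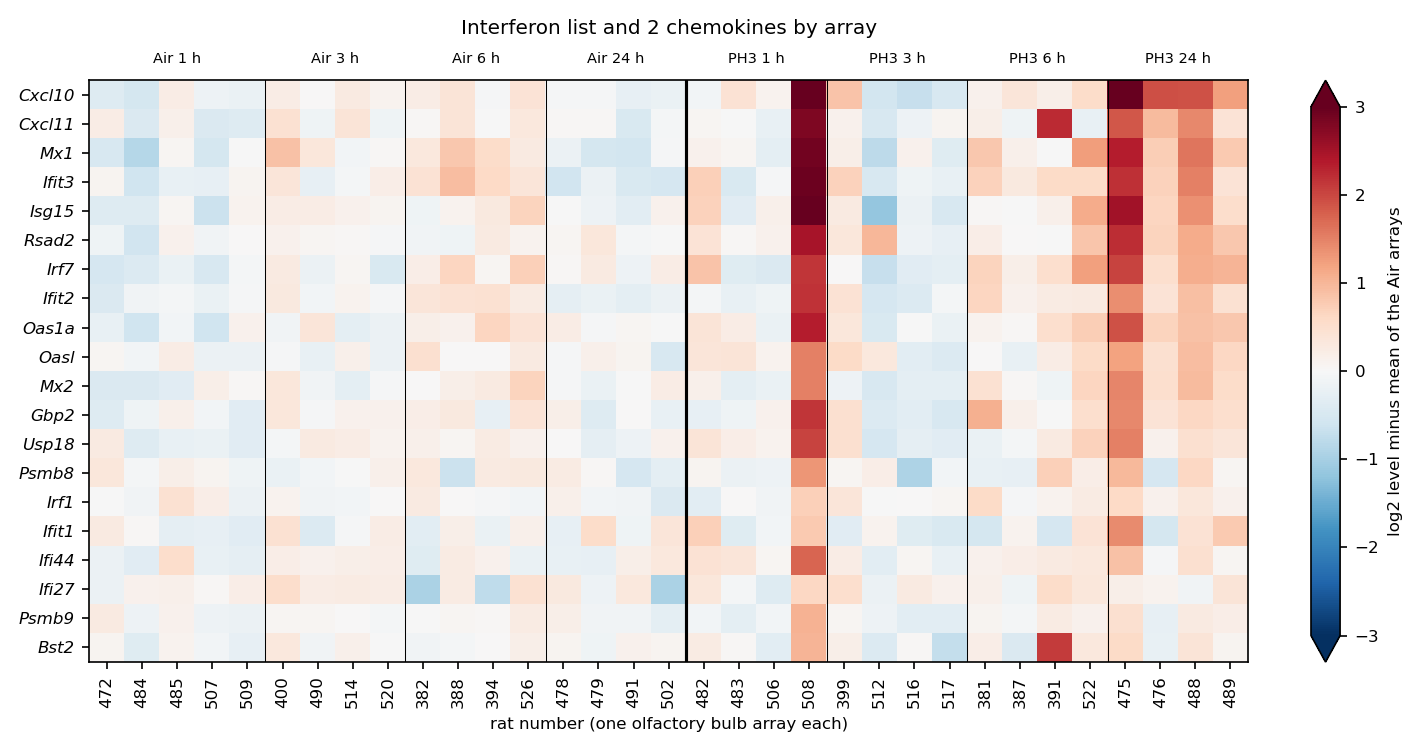
Log2 level minus the mean of the Air arrays (colour, with values beyond the scale shown at its ends) for the 18 interferon list members and 2 chemokines (rows) in each olfactory bulb array (columns, by exposure, time and rat number). The 4 PH3 arrays of 24 h lie above the Air mean for most genes, Rat475 with the highest list mean of the 4 (1.41), and PH3 1 h Rat508 has the highest list mean of all arrays (1.80).

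Genes that sense nucleic acids and pass on the interferon signal were measured with a second list, put together after the values of the first had been seen, with 22 of 28 genes on the array. Its median difference was 0.02, with 12 positive and 10 negative members. The members with the larger differences were the RNA sensors RIG-I (Ddx58) and Dhx58, 0.55 and 0.38, both without overlap between the groups. Another, less bright probe set of Dhx58 was called by limma against the Air arrays of 1, 3 and 6 h (0.55, adjusted p = 0.0468). Irf9 differed by 0.36, Stat2 by 0.29 and Ifih1 by 0.25. Of the genes of the upstream signal, Tbk1 differed by -0.08, Irf3 by -0.05, Jak1 by 0.06 and the receptor gene Ifnar1 by 0.12. The other receptor gene, Ifnar2, had the most negative difference of the list, -0.22, and the interferon genes Ifnb1 and Ifng differed by -0.04 and 0.09. The groups overlapped for each of these 7 genes, and no member of the list was called against the Air rats of 24 h.

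Another list, also put together after the first was seen, held chemokines and antigen presentation genes that interferons induce, 17 of 22 on the array. Its median difference was 0.05. Apart from Cxcl10 and Cxcl11, the groups did not overlap for Parp14, an ADP-ribosyltransferase (0.45), and Tapbp, the loading factor of class I molecules (0.29). Class II genes, which answer chiefly to interferon gamma, were close to level: Cd74 differed by 0.05, RT1-Da by 0.06, RT1-Ba by -0.05 and their activator Ciita by -0.15. B2m, the light chain of class I molecules, differed by -0.05, and Cxcl9, a chemokine typical of interferon gamma, by -0.05. Whether an interferon, and of which kind, lies behind these values was not tested.

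Markers of immune cells stand beside these values. Of 13 microglial markers 10 were positive, with a median of 0.12, and in 2 of them, the integrin Itgam (0.34) and the fractalkine receptor Cx3cr1 (0.30), the groups did not overlap, where 1.73% of all probe sets did so. Among the 3 negative members were P2ry12 (-0.12) and Tmem119 (-0.07). The mean level over the microglial list ran from 7.19 to 7.43 in Air and from 7.33 to 7.45 in PH3. Of 15 blood leukocyte markers 10 were positive, with a median of 0.05, and the list's mean level ran from 4.30 to 4.62 in Air and from 4.31 to 4.72 in PH3, highest in Rat488 and not in Rat475. No marker of either list was called. In whole tissue, more cells of a type and more RNA per cell cannot be told apart, and the part of these cells in the interferon values was not tested.

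Other times and another brain region were set against the 24 h difference. At 1 h the interferon list had a median PH3 minus Air difference of 0.63, which became 0.22 without the arrays that stand apart, Rat508 among them. At 3 h and 6 h it was -0.22 and 0.06. The difference at 24 h minus the mean difference of the earlier times was 1.87 ± 0.61 for Cxcl10 and 1.48 ± 0.52 for Mx1. No probe set was called for that contrast (0%), and 3.43% had an unadjusted p under 0.05. Without the 5 arrays 0 were called again (Cxcl10, 2.10, adjusted p = 0.18). Without Rat508 alone 1 was, Cxcl10 (2.19 ± 0.34, adjusted p = 0.0176). Of the 12 PH3 arrays of 1, 3 and 6 h, 3 had a list mean above all 17 Air arrays, Rat508 (1.80), Rat522 of 6 h (0.58) and Rat391 of 6 h (0.32), against 3 of 4 at 24 h.

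In brain stem at 24 h the list had a median difference of 0.11, with 15 of 18 members positive. None of them was called, where 1 of the 31042 probe sets was (0.00322%). Cxcl10 differed by 0.23 ± 0.23 there and Mx1 by -0.15 ± 0.21. The list mean of each brain stem array was set against that tissue's Air arrays. At 24 h it ran from -0.06 to 0.53 in the PH3 rats and from -0.10 to 0.37 in the Air rats. In lung, heart, kidney and blood the PH3 and Air ranges of 24 h overlapped as well. The olfactory bulb difference exceeded that of brain stem by 1.98 ± 0.58 for Cxcl10, 1.84 ± 0.50 for Mx1 and 1.26 ± 0.53 for Ifit3. limma's SEs gave no call over the 31042 probe sets for this difference (0%), with 5.86% at an unadjusted p under 0.05. The brain stem rats were other animals, except Air Rat502, which gave both tissues.

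Of the other genes with the larger positive differences under the naming rule, 4 are further interferon-induced genes. Rtp4, a chaperone of receptors that interferon induces, was at 6.19, 6.24, 6.02 and 6.14 in Air and at 7.66, 6.54, 7.14 and 6.93 in PH3, a difference of 0.92 ± 0.31. The GTPases Ifgga2l1 and Irgm differed by 0.84 and 0.68, and Cmpk2, a mitochondrial nucleotide kinase that lies beside Rsad2 in mammalian genomes, by 0.47. In each, Rat475 was the highest PH3 rat and no Air rat reached the lowest PH3 rat. None was called.

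The remaining 3 were Ncs1, Ppp2r2c and Gnb4. Ncs1, a calcium sensor of nerve endings, was at 6.17, 6.03, 5.81 and 5.99 in Air and at 6.64, 6.98, 6.53 and 6.55 in PH3 (0.68 ± 0.18). Ppp2r2c, a brain subunit of protein phosphatase 2A, differed by 0.71, and Gnb4, a G protein subunit, by 0.62. In Ncs1, Ppp2r2c and Gnb4 the highest PH3 rat was Rat476 and not Rat475. Gnb4 differed from the Air arrays of 1, 3 and 6 h by -0.04. None was called.

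Rat476 was also the rat with the highest mean over a list of markers of neurons of the neighbouring cortex. Of 11 cortical neuron markers 8 were positive at 24 h, with a median of 0.17, and none was called. The list is not specific to cortex, and Tbr1 is also on the list of mitral and tufted cell markers. Of the 11, 4 lay higher in every bulb than in every brain stem of 24 h, among them Camk2a (10.78 to 11.23 in bulb) and Bcl11b (10.18 to 10.65). Neurod6, a transcription factor of cortical excitatory neurons, was at 5.30, 4.46, 4.05 and 3.78 in Air and at 4.60, 6.38, 4.97 and 4.51 in PH3. The mean level over the list was 6.10 to 6.55 in Air and 6.28 to 6.87 in PH3, with Rat475 and Rat489 inside the Air range and Rat476 highest. The opioid peptide gene Pdyn followed the same rat, at 6.81 in Rat476 and at most 4.53 in the other 7 arrays. The part of dissected cortex in these values was not tested.

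Immediate early genes, which neurons switch on within minutes of firing, had mostly negative differences. Of 26 measured members of 30, 18 were negative, with a median of -0.19; 4 had an unadjusted p under 0.05 in that direction, where 2.06% of all probe sets did, and in 2 the groups did not overlap, where 2.02% of all probe sets did so. None was called. Nr4a3, an orphan nuclear receptor, had the largest negative difference of the named genes, -1.33 ± 0.37. It was at 6.73, 6.42, 6.55 and 7.56 in Air and at 5.36, 6.00, 5.04 and 5.54 in PH3, with every PH3 rat under every Air rat of 24 h. All 17 Air arrays of the tissue ran from 5.11 to 7.67 for Nr4a3, and only PH3 Rat488 lay below them. Against the Air arrays of 1, 3 and 6 h the list's median for PH3 of 24 h was -0.10. The list's median for Air of 24 h against those arrays was 0.13. Egr2, a zinc finger factor, was at 7.05, 6.33, 6.80 and 6.69 in Air and at 5.70, 5.83, 4.42 and 6.00 in PH3, a difference of -1.23 ± 0.51.

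The lowest PH3 rat for both was Rat488, which was also the lowest for Nr4a1 (6.99 against 8.01 to 9.43 in the other 7 arrays) and Fosb (5.53 against 6.07 to 7.22). Nr4a1 differed by -0.90, Fosb by -0.72 and Nr4a2 by -0.54. Other members did not share the direction: Arc differed by 0.13, Fosl1 by 0.12, Jun by -0.05 and Atf3 by 0.01. The PH3 rats of 6 h had like values for some of them, with a difference of -1.09 for Nr4a3 and -1.05 for Fosb, and those of 1 h and 3 h did not (0.48 and 0.05 for Nr4a3). Cort, cortistatin, a peptide of inhibitory neurons, lay lower in all PH3 rats, at 6.32, 6.12, 6.04 and 6.32 against 7.11, 6.98, 6.76 and 6.93 in Air (-0.74 ± 0.24). Klf10, an early response factor, differed by -0.61 without overlap.

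The other genes named for their negative differences were not called against the Air rats of 24 h. Wdr36, which works in ribosome assembly, differed by -0.44, as did Fastkd5, a factor of mitochondrial RNA processing, and Dync2h1, the motor of transport within cilia. Fastkd5 was called against the Air arrays of 1, 3 and 6 h (-0.38, adjusted p = 0.0399). Gmps, which makes GMP, differed by -0.39, the phosphatase gene Ppm1d by -0.35 and Pank2, of coenzyme A synthesis, by -0.34. The 4 PH3 rats lay under the 4 Air rats for each of them, as the naming rule asked.

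**Figure D3:**
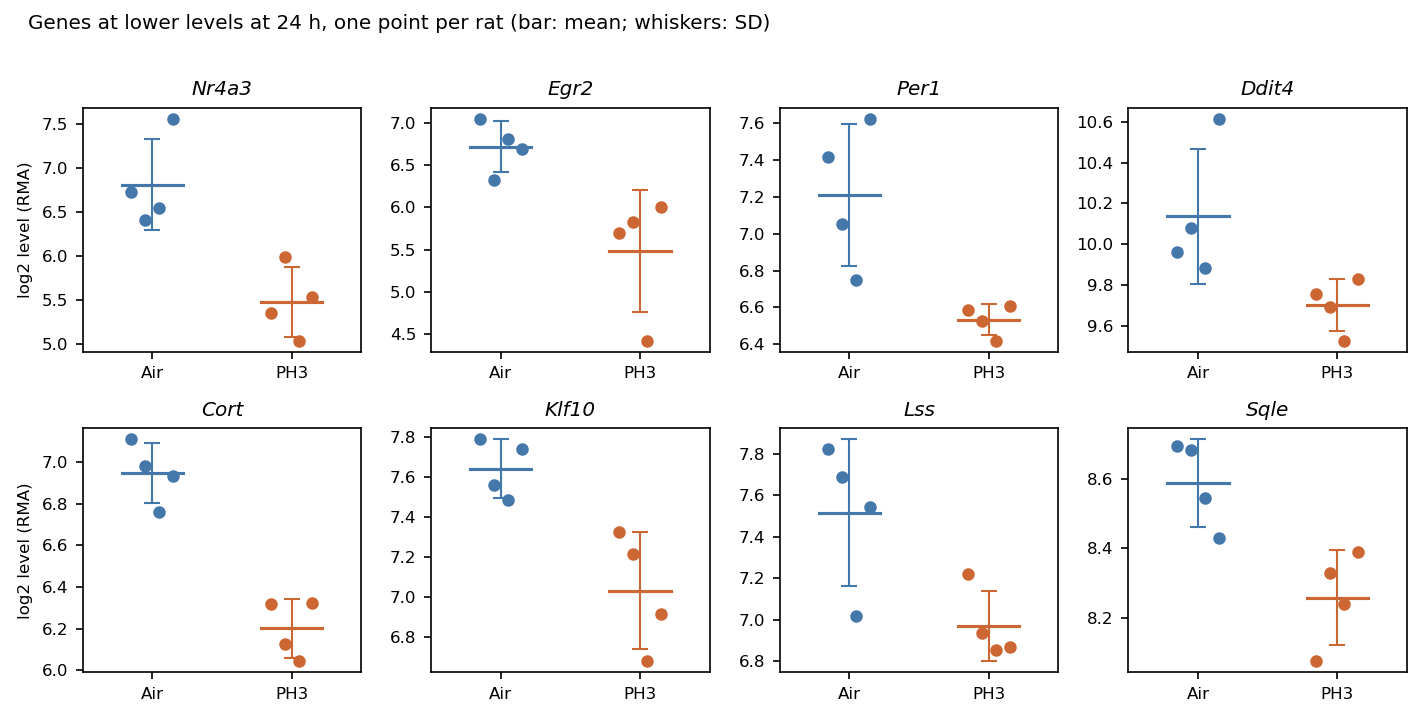
Log2 level of 8 genes with negative differences at 24 h (y axis), 1 point per rat, Air in blue and PH3 in orange, with the mean as a bar and the SD as whiskers (n = 4). The groups do not overlap for Nr4a3, Egr2, Per1, Ddit4, Cort, Klf10 and Sqle, and they overlap for Lss through Air Rat491.

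Genes that glucocorticoids induce, a list that shares Per1 with the clock genes, had 16 of 22 negative differences and a median of -0.18. The list's median was -0.22 in brain stem at 24 h, with 4 of 22 positive, and 0.19 and 0.26 in olfactory bulb at 1 h and 3 h. Per1 was at 7.42, 7.05, 6.75 and 7.63 in Air and within 6.42 to 6.61 in PH3, a difference of -0.68 ± 0.22. All 17 Air arrays of the tissue ran from 6.19 to 7.63 for Per1, a range that holds every PH3 rat of 24 h. Ddit4, an inhibitor of the growth kinase mTORC1, differed by -0.44 and Angptl4, a lipase inhibitor, by -0.46, both without overlap. Nfkbia, the inhibitor of NF-kB, differed by -0.45. The Air rats spread more than the PH3 rats for Per1 and Ddit4, with Air Rat502 the highest in each. Fkbp5 (-0.06), Sgk1 (-0.30) and Pdk4 (-0.04) overlapped, as did most clock genes: of 19, 10 were positive, the median was 0.01, Per2 differed by -0.39 and Dbp by -0.06. None was called, and the time of day of each dissection is not among the values used here.

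Cholesterol synthesis genes had 12 negative differences among 13 measured of 18, with a median of -0.22. Lss, lanosterol synthase, was at 7.82, 7.69, 7.02 and 7.54 in Air and at 7.22, 6.93, 6.85 and 6.87 in PH3, a difference of -0.55 ± 0.15. Sqle, squalene epoxidase, the step before it, was at 8.70, 8.68, 8.54 and 8.43 in Air and at 8.07, 8.33, 8.24 and 8.39 in PH3 (-0.33 ± 0.11). For Lss only Air Rat491 lay inside the PH3 range, and for Sqle no rat did. Acat2, which feeds acetoacetyl-CoA into the pathway and was not on the list, differed by -0.47 without overlap. Idi1 differed by -0.22, Cyp51 by -0.24 and Mvd by -0.22. The exception was Srebf2, the transcription factor of the pathway, at 0.17. The list's median was -0.20 at 1 h, -0.01 at 3 h, -0.13 at 6 h and 0.00 in brain stem at 24 h, and none of its members was called against the Air rats of 24 h. Sqle was called against the Air arrays of 1, 3 and 6 h (-0.36, adjusted p = 0.0483).

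Cytochrome c oxidase, the complex that phosphine blocks, showed small differences. Of 12 measured subunits of 14, 10 were negative, the median was -0.05 and the largest difference among the abundant housekeeping subunits Cox4i1, Cox5b, Cox6a1, Cox6b1, Cox7b, Cox7c and Cox8a was -0.11, for Cox6a1. Cox5a differed by -0.39, at 5.69, 5.58, 6.06 and 6.10 in Air and within 5.41 to 5.51 in PH3; against the Air arrays of 1, 3 and 6 h it was called (-1.16, adjusted p = 5.12e-07), and it also differed between the Air groups, as given below. The other respiratory chain subunits had 19 of 22 negative and a median of -0.09, with Ndufb8 of complex I at the low end (-0.23). In 5 of the 22, Ndufb8 among them, every PH3 rat lay below every Air rat, where 2.02% of all probe sets did so. limma's unadjusted p was under 0.05 in that direction for 3, where 2.06% of all probe sets had it. None of these subunits was called. Their median in brain stem at 24 h was -0.11.

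Of the genes of damage and defence, none was called against the Air rats of 24 h, and the medians lay close to that of all genes. The median was -0.05 for 15 NRF2 targets, -0.06 for 17 antioxidant enzymes, -0.05 for 25 targets of the integrated stress response, -0.03 for 23 heat shock and chaperone genes, -0.07 for 15 p53 and cell death genes, 0.10 for 8 metallothionein and zinc genes and 0.01 for 24 glycolysis and hypoxia genes. Adm, adrenomedullin, a hypoxia-induced vasodilator, was lower in every PH3 rat (-0.43) and was called against the Air arrays of 1, 3 and 6 h (-0.55, adjusted p = 0.0332). Gdf15 differed by -0.12 and Mt2A by -0.13. Of 24 inflammation genes 16 were positive, with a median of 0.06; the chemokine Ccl4 differed by 0.55, with PH3 Rat475 at 4.75 and Air Rat478 level with the other PH3 rats at 4.07.

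Markers of the bulb's own cell types showed small differences. Of 16 interneuron markers 14 were negative, with a median of -0.08: Th, the dopamine enzyme of periglomerular cells, differed by -0.37, with Rat489 at 9.16, above all Air rats, and the others at 8.55, 8.30 and 8.46. Gad1 differed by 0.04. Of 9 projection neuron markers 5 were positive (median 0.05), and of 9 markers of sensory axons and ensheathing glia 8 were negative (median -0.17), Omp by -0.30. Astrocytes had 10 of 14 positive (median 0.09), a list that holds Cxcl10. The median was -0.01 for 14 oligodendrocyte markers and -0.01 for 14 markers of meninges and choroid plexus, and 7 of 14 markers of endothelium and pericytes were positive. Neuroblast and dividing cell genes had 9 of 14 negative (median -0.07), with the topoisomerase Top2a at -0.27, and red cell genes had 4 of 6 negative (median -0.17). GABA and glutamate receptor subunits had a median of 0.04, with the NMDA receptor subunit Grin2b at 0.49, and neuropeptide and amine genes one of 0.05. None of these markers was called against the Air rats of 24 h, Cxcl10 excepted when the arrays that stand apart were left out. Against the Air arrays of 1, 3 and 6 h, Cxcl10 was called, as given above, and so was Slc18a2, the vesicle transporter of amines (-0.67, adjusted p = 5.68e-04), which also differed between the Air groups (-0.58, adjusted p = 0.00506).

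**Figure D4:**
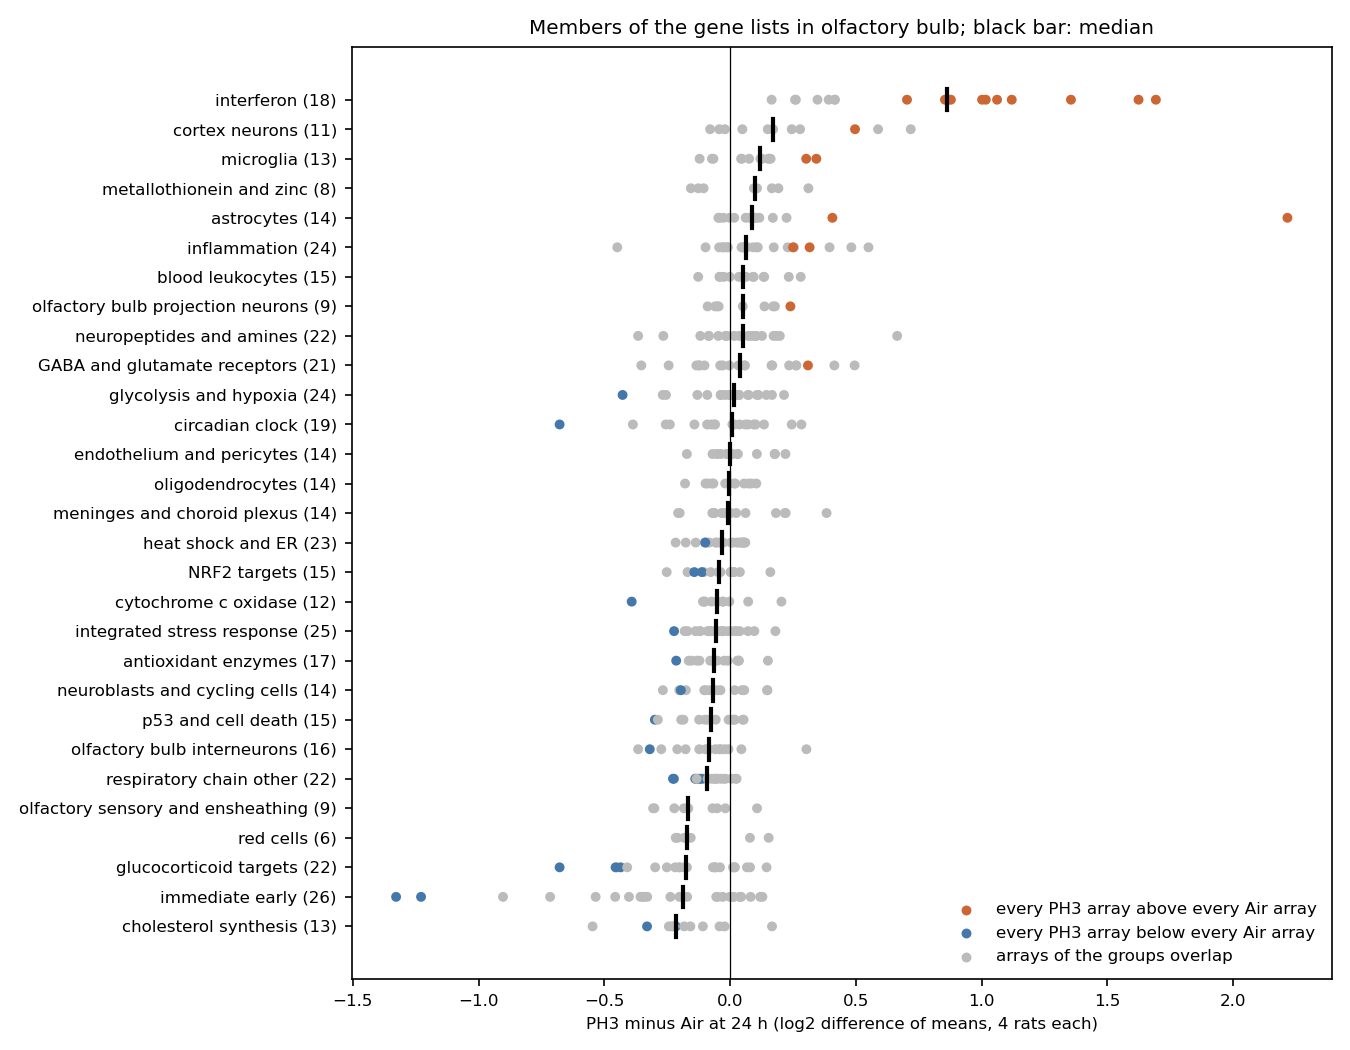
PH3 minus Air at 24 h as a log2 difference of means (x axis) for each measured member of 29 gene lists (rows, number of members in brackets, ordered by median), with the median as a black bar. Orange and blue points are members whose 4 PH3 arrays all lie above or all below the 4 Air arrays; the interferon list has its median at 0.86, and every other list has a median between -0.22 and 0.17.

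The 24 h Air arrays themselves differed from the Air arrays of 1, 3 and 6 h. limma called 84 probe sets (0.271%), 6 higher (0.0193%) and 78 lower (0.251%) at 24 h. The 4 named genes with the smallest p by their brightest probe set were Cox5a (-0.77 ± 0.11, adjusted p = 5.31e-04), the phosphate carrier Slc34a1 (-0.81, adjusted p = 6.59e-04), Retreg1, a receptor for degradation of the endoplasmic reticulum (-0.52, adjusted p = 0.00156), and Rp9 (-0.39, adjusted p = 0.00216). The count was 42 without Air Rat478 and 48 without Air Rat479. Of the 84, 66 were also called, in the same direction, between PH3 of 24 h and PH3 of the earlier times (183 called, 0.59%). PH3 minus Air at 24 h was 0.03 for Retreg1 and -0.01 for Rp9. PH3 of 24 h against the earlier Air arrays called 231 (0.744%), 31 higher (0.0999%) and 200 lower (0.644%), 73 of them shared with the 84. Day of handling was not tested.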

How the data were processed

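The authors deposited log2 expression values of rat 3′ arrays, 1 per RNA sample; RMA normalization in Partek was used, per the submitters' processing notes, with versions not given in the sources used here. Which arrays were normalized together is not given there either. RNA came from pulverised frozen tissue and was labelled with a 3′ IVT kit, per the labels' protocols, so decay can change levels. Of 31139 probe sets, 97 controls were left out and 31042 tested; 19063 name 1 gene, 572 several and 11407 none. A gene was read by its brightest probe set over the 33 olfactory bulb arrays (13438 genes).

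limma 3.58.1 in R 4.3.3 was fitted to those 33 arrays in 8 groups of exposure and time, with Benjamini-Hochberg adjustment over all 31042 probe sets and calls at an adjusted p under 0.05. The brain stem arrays were fitted in the same way, and the 2 differences were compared with their SEs. The number of arrays limits the precision. The code was tested on simulated data. Alternatives were fits of fewer arrays, other centring and normalization, a filter on dim probe sets, an intensity trend, RNA quality as a covariate, other controls and leaving out each rat.

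Genes were named by rule: up to 12 in each direction with an unadjusted p under 0.01, no overlap and a level above the median, the extremes of each list, genes named for other times or tissues, and the smallest p of other contrasts. The interferon list was then given in full, and Cxcl10, Cxcl11 and Pde8b were added after their values were seen, as were other list members given as examples. The comparison, its members and the gene lists were chosen with earlier results of these data known. Promoter sequences are RefSeq's (GRCr8).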

Additional observations from a re-analysis of the deposited data

Results flagged for a closer look

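In 5 of 214 groups of 4 rats, 1 rat lay far from the other 3 by Dixon's criterion, which chance meets in about 1 of 20 groups. PH3 Rat475 was high for the chemokine gene Ccl4 (4.75, with the next rat at 4.07), and PH3 Rat488 was high for the B cell marker Ms4a1 (3.77, next 3.12). Air Rat502 was low for Cd24, a marker of neuroblasts (7.26, next 7.97), low for Uchl1, a neuronal hydrolase (9.73, next 9.94), and high for Wdr36 (7.54, next 7.27).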

How the results depend on the processing

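The count of 0 calls for PH3 minus Air at 24 h stayed at 0 in the 8-array fit, with other centring, with renewed normalization, in the brighter probe sets, with an intensity trend, with RNA quality as a covariate and without each rat. It became 231 with the Air arrays of 1, 3 and 6 h as controls and 7 without the 5 arrays that stand apart. Chosen after seeing the data were the fits without Rat508 alone, which gave 4 calls, and 1 for the contrast with earlier times, and those without the 5 arrays and 1 rat in turn, which gave 1 to 9. The olfactory bulb difference was called against that of brain stem for 3 probe sets without the arrays that stand apart in each tissue, also chosen after seeing the data: Med1 (0.96), Trim45 (-1.31) and 1 unnamed. The 84 calls between Air groups became 16 among the brighter probe sets and 42 to 91 with 1 array left out. No paired analysis was possible because each rat had 1 exposure and gave 1 olfactory bulb array. The interferon list's median stayed positive in every alternative run. With the earlier Air arrays as controls, 10 effects changed sign: Alas2 0.59, Ccng1 -0.0195, Cux2 0.0830, Gal -0.108, Gnb4 -0.0358, Gpx3 -0.150, Hsp90b1 -0.0338, Ndufs4 -0.0297, Retreg1 -0.48 and Slc22a6 0.18. By construction each effect moved by the difference between the Air arrays of 24 h and the earlier ones. The cause of that difference was not tested. Leaving out 1 array at a time turned 14 small effects, whose ranges were -0.105 to 0.441 for Arc, -0.0585 to 0.0623 for Atf3, -0.0366 to 0.218 for Cd24, -0.173 to 0.0111 for Cdhr1, -0.0921 to 0.101 for Cxcr4, -0.123 to 0.0562 for Fkbp5, -0.155 to 0.322 for Gal, -0.0121 to 0.408 for Ifi27, -0.210 to 0.121 for Lcn2, -0.00157 to 0.0524 for Ndufs4, -0.147 to 0.0265 for Pdk4, -0.0503 to 0.124 for Retreg1, -0.0316 to 0.00735 for Rp9 and -0.195 to 0.137 for Tmem252.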
